A study of Mus musculus with 4 samples.

Results

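Fibroblasts cocultured with mesenchymal stem cells (MSCs) differed from fibroblasts cultured alone in many genes, and the libraries analysed here allowed the same comparison in the presence of QNZ, an inhibitor of NF-κB. For each gene, the coculture change without QNZ was set against the coculture change with QNZ, and the genes were described by whether the change was lost, kept or gained. Genes were included where the FPKM (fragments per kilobase of gene and per 1000000 reads) reached 1 in any of 4 libraries, which gave 11335 of 21839 genes by name. The coculture change was log2(FPKM + 1) in cocultured fibroblasts minus the same value in fibroblasts alone, and the gap was the change without QNZ minus the change with QNZ. A rise or a fall was a change of at least 1 in size on this scale. A lost rise was present without QNZ and absent with QNZ, with a gap of at least 1, and lost falls were defined in the same way with a gap of at most -1. Kept rises and falls passed the size of 1 in both pairs, and gained rises and falls passed it with QNZ only, again with a gap of at least 1 in size. Genes that passed in 1 pair but had a smaller gap were set apart as borderline.

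All 4 libraries came from wild-type (WT) mouse embryonic fibroblasts prepared from embryos at day 13.5 and harvested after 48 h. They were grown alone, in coculture with bone marrow MSCs, alone with QNZ, or in coculture with QNZ, which made 4 conditions. According to the labels, the fibroblasts lay on the upper side of an insert with a 0.4 μm polyester membrane, and RNA was taken from the fibroblasts. The sources used here give no dose of QNZ. Each condition had 1 library, so the spread between cultures is unknown and no test between conditions was possible. Coculture and QNZ therefore cannot be told apart from any other difference between the libraries. In such bulk samples, fewer cells of a type and less RNA per cell cannot be told apart either. The pair with QNZ and the pair without QNZ shared no library.

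NF-κB is a family of transcription factors held in the cytoplasm by inhibitor proteins of the IκB family until receptors for tumour necrosis factor, interleukin-1 or bacterial products release it. It then enters the nucleus and switches on chemokines, cytokines, acute-phase proteins, matrix proteases and its own inhibitors. Type I interferon signalling, which shares several chemokine targets with NF-κB, acts through STAT and IRF factors and induces antiviral genes such as those of the Ifit and Oas families. Fibroblasts are known for strong responses of both kinds. Hypoxia-inducible factors and ATF4, a factor of the amino acid response, are separate regulators of metabolic genes.

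The libraries held between 13153696 and 15778488 reads assigned to genes, and 9590 to 10942 genes had an FPKM of at least 1. Mitochondrially encoded genes took 0.291% of the reads in fibroblasts alone, 0.738% in coculture, 0.580% alone with QNZ and 1.49% in coculture with QNZ. All 9 fibroblast markers were measured, with a summed FPKM of 2358, 2785, 1598 and 2048 in the same order. Of 8 bone marrow stromal markers 5 were measured, and their summed FPKM was 125 and 875 without QNZ and 178 and 1086 with QNZ, of which the BMP antagonist Grem1 made up the most. The Y-linked gene Ddx3y had an FPKM of 1.79 alone, 11.8 in coculture, 2.52 alone with QNZ and 11.5 in coculture with QNZ, and Eif2s3y and Uty also rose in both pairs. These genes, chosen after their values were seen, rose alike with and without QNZ, and the part that cells or RNA of another origin have in the changes was not tested. Of the endothelial and erythroid markers, 0 were measured, and of the epithelial, adipocyte, muscle and neural markers 1 each.

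Promoter sequences were set beside the genes first, because the leading lost falls were mostly interferon-induced genes. The list of 41 NF-κB target genes held 12 kept and 0 lost rises, against 12.9% and 0.529% of all measured genes. At the latter share, 0 lost rises in a list of this size says little. Sequences were taken from RefSeq (GRCm38.p6), and the 250 bases before the first start that RefSeq lists were searched on both strands for 9013 of the 11335 genes, those with a listed promoter. The RefSeq start can differ from that in the deposited table, and the stretch shown for Tgtp1 lies inside the gene as that table places it. The core of the interferon-stimulated response element was written as GAAA, any 2 bases, GAAA, and the κB consensus motif stands for the sites that NF-κB binds. Capitals mark the matches, which read TTTC where they lie on the other strand. The first group shows 5 lost falls with the paired GAAA motif, and Cxcl10 carries κB matches as well.
Cxcl10: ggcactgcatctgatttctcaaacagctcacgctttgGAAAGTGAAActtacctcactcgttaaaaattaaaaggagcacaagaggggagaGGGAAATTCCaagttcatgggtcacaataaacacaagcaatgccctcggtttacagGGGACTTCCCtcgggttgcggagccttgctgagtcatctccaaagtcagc
Ifit3: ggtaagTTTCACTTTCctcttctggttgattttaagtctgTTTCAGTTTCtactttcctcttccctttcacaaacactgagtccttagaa
Oas1a: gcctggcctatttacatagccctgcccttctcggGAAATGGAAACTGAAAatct
Tgtp1: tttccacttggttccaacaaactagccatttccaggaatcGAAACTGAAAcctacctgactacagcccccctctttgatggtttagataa
H2-T22: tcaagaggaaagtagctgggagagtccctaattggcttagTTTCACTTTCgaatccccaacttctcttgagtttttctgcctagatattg
These stretches lie at chr5:92348943-92349139 (-), chr19:34583367-34583456 (+), chr5:120907526-120907579 (-), chr11:48992274-48992363 (-) and chr17:36042884-36042973 (-). Among kept rises on the list of NF-κB target genes, a κB match was found in 3 only, and the others had no match or no promoter sequence. Over all kept rises the share with a κB match was 4.66%, near the 4.49% of all measured genes. The second group shows these 3 genes, chosen for their match, with κB matches in capitals.
Il6: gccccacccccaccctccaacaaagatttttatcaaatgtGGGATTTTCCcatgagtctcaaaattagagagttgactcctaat
Ccl20: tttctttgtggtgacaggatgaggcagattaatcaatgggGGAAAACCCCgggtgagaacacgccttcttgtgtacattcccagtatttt
Cxcl2: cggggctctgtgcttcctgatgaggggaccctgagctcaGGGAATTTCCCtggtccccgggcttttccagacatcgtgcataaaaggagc
They lie at chr5:30013030-30013113 (+), chr1:83116646-83116735 (+) and chr5:90903763-90903852 (+).

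The paired GAAA motif was found in 9 of the 34 lost falls with a promoter sequence, or 26.5%, in 2.22% of lost rises (1 of 45) and in 2.66% of all measured genes (240 of 9013). The 9 genes were Cxcl10, H2-T22, Ifit3, Ifit3b, Oas1a, Oas1g, Phf11b, Tgtp1 and Tgtp2, of which the Ifit3, Oas1 and Tgtp genes are close copies of each other. The κB consensus motif was found in 3 of the 34 lost falls (Cxcl10, H2-T22 and Oasl1), in 1 of 45 lost rises (Mdfic), in 4.66% of kept rises and in 4.49% of all measured genes. The core letters of the hypoxia response element, ACGTG or GCGTG, were in 42.2% of lost rises (19 of 45), in 29.4% of lost falls and in 58.2% of all measured genes. The CARE motif of ATF4 targets, TGATGNAA, was in 0 of 45 lost rises, in 8.82% of lost falls (3 of 34: Lrrc17, Phf11b and Phf11d) and in 1.95% of all measured genes. A match describes the letters only and does not show that a factor bound there. The paired GAAA and CARE motifs were chosen after the classes were seen.

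Most of the coculture response was present with and without QNZ. Without QNZ, 2719 genes rose (24.0%) and 1252 fell (11.0%) in coculture, and with QNZ 1584 rose (14.0%) and 986 fell (8.70%). The counts of rises and falls in the gene lists below are to be read beside these shares. The rises with QNZ were largely a subset, since 92.5% of them also passed without QNZ, whereas 53.9% of the rises without QNZ passed with QNZ. For falls these shares were 85.4% and 67.3%. Across the 11335 genes the changes of the 2 pairs had a Pearson correlation of 0.925 and a Spearman correlation of 0.926, given as a description over genes that share the same 4 libraries. Genes with a rise in one pair and a fall in the other numbered 0.

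Kept genes outnumbered lost and gained genes by far. There were 1465 kept rises (12.9%) and 842 kept falls (7.43%), compared with 60 lost rises (0.529%), 50 lost falls (0.441%), 13 gained rises (0.115%) and 13 gained falls (0.115%). A further 1300 rises (11.5%) and 491 falls (4.33%) were borderline, and 7101 genes passed in neither pair. The gap was at least 1 in 125 genes (1.10%) and at most -1 in 90 genes (0.794%), and 42 of these 215 genes passed the size of 1 in neither pair. The change with QNZ was on average smaller as deposited, but not under every scaling. The median gap was -0.04 with median-of-ratios scaling and -0.02 with the length trend removed. As deposited, the median change over all genes was 0.35 without QNZ and 0.18 with QNZ, the median gap was 0.15, and 67.0% of gaps were above 0. Kept rises had a median ratio of the change with QNZ to the change without QNZ of 0.824, and kept falls of 0.908.

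**Figure D1:**
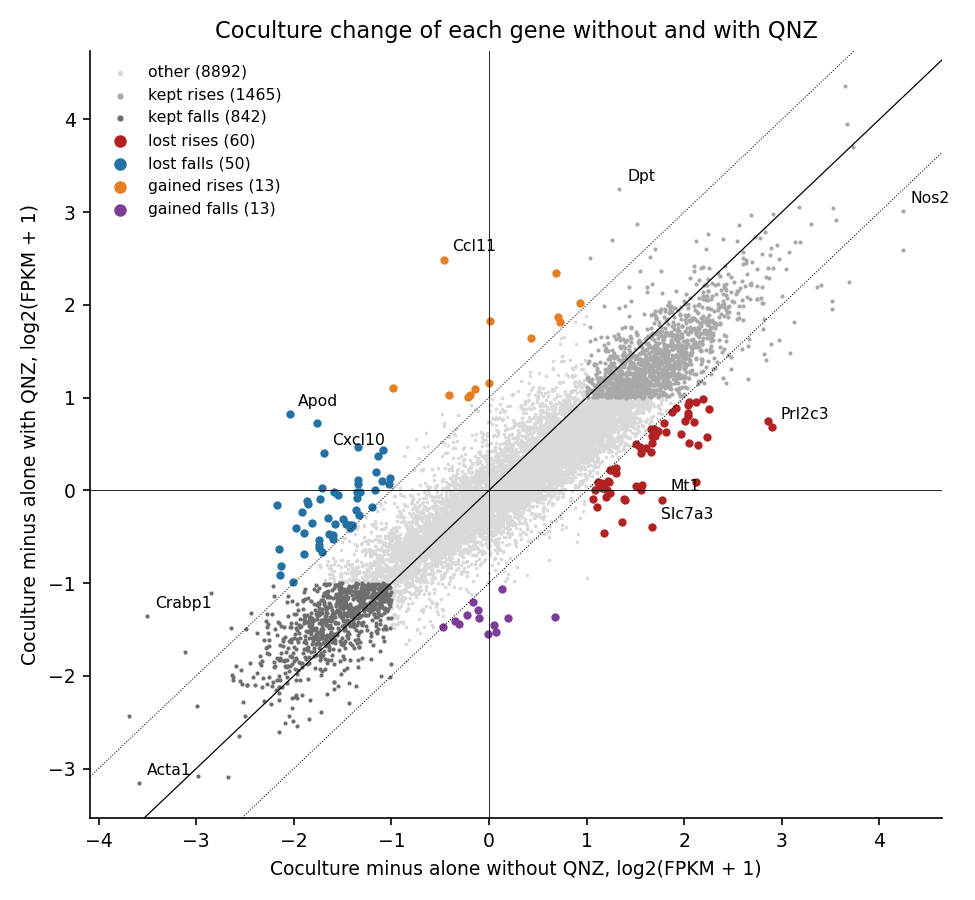
Coculture change of each of 11335 genes without QNZ (horizontal axis) and with QNZ (vertical axis), as the difference of log2(FPKM + 1). The solid line marks equal changes and the dotted lines a gap of 1 in size, and colours mark the classes, with 1465 kept rises along the line and 60 lost rises and 50 lost falls off it. Each point is 1 gene from 4 single libraries.

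The classes rest on a size of 1, so genes near it are a matter of degree. Reep1 was just inside the lost rises with a gap of 1.004 and Mapk1ip1 just outside with 0.993. For lost falls these were Gmppb with -1.01 and 2310039H08Rik with -0.979, for gained rises Bmp2 with -1.08 and Cebpb with -0.933, and for gained falls Mtfr2 with 1.01 and Nup43 with 0.996. The FPKM minimum of 1 was just met by Bbs1 and just missed by Afap1l1. Many members had few reads. A library with under 10 reads was found in 16 of the 60 lost rises, 9 of the 50 lost falls, 2 of the 13 gained rises and 3 of the 13 gained falls. The coculture ratio of reads without QNZ was divided by that with QNZ, with an exact 95% interval that covers counting error only. This interval lay off 1 in 51, 45, 11 and 12 genes of these classes. No interval was given for 8, 2, 2 and 1 genes with a library at 0 reads. The genes were chosen for a large gap in the same reads, so these counts are not separate support. The interval says nothing of the spread between cultures.

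Interferon-induced genes made up most of the leading lost falls. Ifit3 and Zbp1 are described first, and both were highest in fibroblasts alone without QNZ. Ifit3, an antiviral protein with tetratricopeptide repeats, had an FPKM of 515 alone, 141 in coculture, 154 alone with QNZ and 139 in coculture with QNZ. The cocultured fibroblasts were thus below the fibroblasts alone without QNZ only, with changes of -1.86 without and -0.14 with QNZ and a gap of -1.71. Zbp1, a sensor of Z-form nucleic acids, had an FPKM of 63.1 alone, 18.6 in coculture, 11.6 alone with QNZ and 11.8 in coculture with QNZ and a gap of -1.74. For Ifit3 the ratio of the read ratios was 0.303 (95% interval 0.286 to 0.322) and for Zbp1 it was 0.288 (95% interval 0.252 to 0.330). Ifit3 lies on chromosome 19 from 34583531 to 34588731 on the plus strand (mm10, as the table gives it), and no exon of another annotated gene overlaps it, but reads of Ifit3 and its close copy Ifit3b may have been split between them by the counting.

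Chemokines that interferon induces behaved alike. Cxcl10, which attracts activated T cells and is a target of both NF-κB and interferon signalling, had an FPKM of 175 alone, 53.3 in coculture, 38.3 alone with QNZ and 50.8 in coculture with QNZ. Its change was -1.70 without QNZ and 0.40 with QNZ, a gap of -2.09 and a read ratio of 0.230 (95% interval 0.210 to 0.252). The gene (ENSMUSG00000034855) lies on chromosome 5 from 92346638 to 92348889 on the minus strand, where an exon of 1 annotated gene on the other strand overlaps it, so its value is less certain as it is not known whether the counting used strand. Cxcl9, a related chemokine chosen here after its values were seen, had an FPKM of 4.17, 0.468, 0.693 and 0.328 in the same order of libraries. Ccl8, which attracts monocytes, had 36.7, 7.37, 10.4 and 9.22, with changes of -2.17 and -0.16. Ccl12 had 15, 0, 2 and 0 reads, so that a change with QNZ was not detectable at this depth. In all of these chemokines the level in fibroblasts alone without QNZ was the highest of the 4 libraries.

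Of the lost falls, Apod and Ifi27l2a had the largest gaps. Apod, a lipid-binding protein of the lipocalin family, had an FPKM of 22.04 alone, 4.59 in coculture, 0.738 alone with QNZ and 2.07 in coculture with QNZ. Without QNZ it fell by 2.04, and with QNZ its change was 0.82 in the other direction, which gave a gap of -2.86 and a read ratio of 0.0744 (95% interval 0.0455 to 0.120). Apod (ENSMUSG00000022548) lies on chromosome 16 from 31296192 to 31314808 on the minus strand, with no overlapping exon. Ifi27l2a, an interferon-induced membrane protein, had 108, 31.1, 9.99 and 17.2 in the order of libraries above, with changes of -1.76 and 0.73. Its neighbour and close copy Ifi27l2b was a kept fall with 69.9, 7.197, 6.32 and 1.18, so the counting may have divided reads between them. Apod and Ifi27l2a were therefore each lower with coculture in 1 pair and higher in the other.

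Genes of antigen presentation and of the interferon-induced GTPases were also among the lost falls. Psmb8 and Psmb9, catalytic subunits of the immunoproteasome, had an FPKM of 20.9, 4.81, 5.85 and 4.81 and of 7.63, 2.44, 2.25 and 2.202. H2-T22, a class I-like histocompatibility gene named after its values were seen, had 392.4 alone, 87.5 in coculture, 107 alone with QNZ and 68.8 in coculture with QNZ, with a gap of -1.52. Both show 1 high library, the fibroblasts alone without QNZ. Tgtp1, an interferon-induced GTPase, had 14.7, 5.22, 1.54 and 2.51, and its copy Tgtp2 had 11.00, 4.46, 1.86 and 2.69. The oligoadenylate synthetase Oas1a, which senses double-stranded RNA, had 153, 34.2, 57.9 and 32.3 with a gap of -1.31. It fell by 2.13 without QNZ, and its change of -0.82 with QNZ came close to the size of 1. Them6, a thioesterase superfamily member, had 6.77, 1.13, 3.13 and 2.81.

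Of 45 measured interferon-stimulated genes, 43 had a gap below 0, whereas 67.0% of all gaps were above 0 as deposited. In this list 16 fell in coculture without QNZ and 3 fell with QNZ, and 3 and 5 rose. Lost falls were 9 of the 45 (Ifit3, Ifit3b, Oas1a, Oas1g, Oasl1, Cmpk2, Zbp1, Psmb8 and Psmb9), against 0.441% of all measured genes. The list's median change was -0.42 without QNZ and 0.12 with QNZ, although as TPM the former was 0.09. Isg15, Ifi35 and Bst2 were kept falls. Isg15, a ubiquitin-like protein named after its values were seen, had an FPKM of 2159 alone, 344 in coculture, 875 alone with QNZ and 313 in coculture with QNZ, so its fall was weaker with QNZ by 1.17 on the log2 scale. Ifi203, Stat2 and Gbp7 were kept rises, and Iigp1 was a gained rise. Of 17 genes of class I antigen presentation, 2 were lost falls and 15 had a gap below 0, with a median gap of -0.41.

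The remaining lost falls had gaps between -1.64 and -1.01. They comprised further interferon-induced genes (Ifi47, Slfn2, Parp12, Phf11b, Phf11d, Ube2l6), histone genes (Hist1h3b, Hist1h3c, Hist1h3g) and a mixed group. The mixed group held Lrrc17, Hap1, Nnat, Apoa2, Cdo1, Fam174b, Gap43, Serpinb9e, Dok1, Crct1, Sprr2g, Tppp3, Cbr2, Rufy1, Loxl3, Nudt16l1, Pla2g16, Rpl10-ps3, Gsto1, Crispld2, Cdc42ep5 and Gmppb. Loxl3, a lysyl oxidase that crosslinks collagen, had an FPKM of 122, 59.6, 39.8 and 41.9. Gap43, a growth cone protein of neurons, had 46.8, 15.1, 11.5 and 8.69. Cdo1, which starts cysteine breakdown, had 33.2, 12.5, 6.28 and 6.66. In these 3 genes too the level in fibroblasts alone was the highest.

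**Figure D2:**
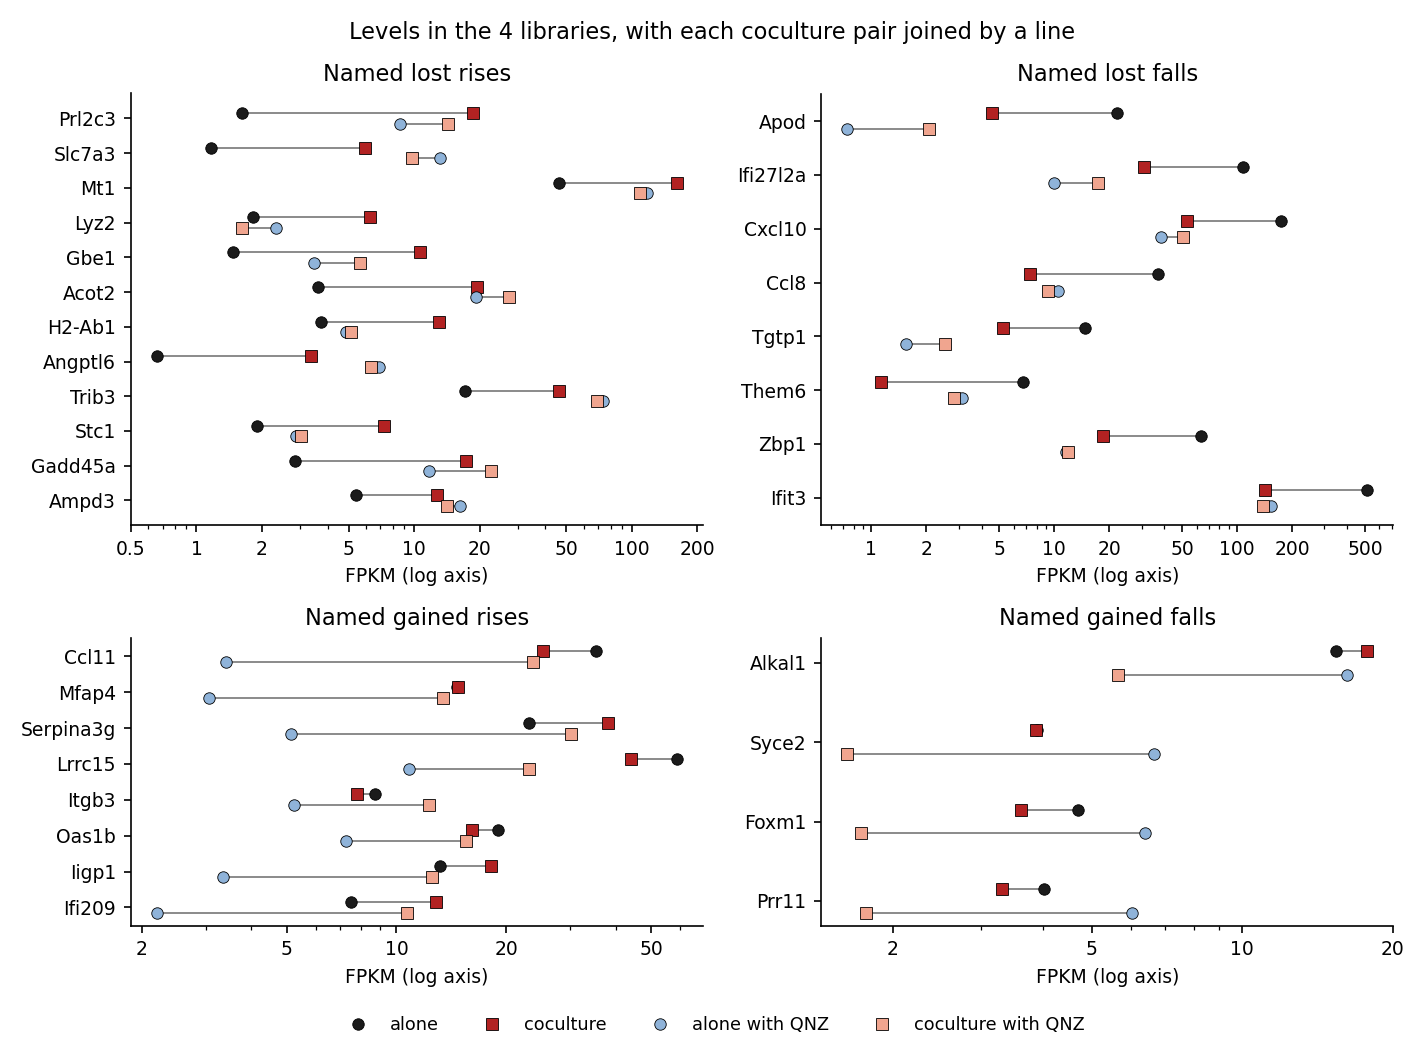
FPKM of the named lost rises, lost falls, gained rises and gained falls in the 4 libraries, on a log axis. Black circles are fibroblasts alone, red squares coculture, blue circles alone with QNZ and pale red squares coculture with QNZ, 1 library each, and lines join the libraries of a pair. In the lost falls the black circle stands apart on the right, as for Ifit3 with 515 alone and 139 to 154 in the other libraries.

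Lost rises were a more mixed group, and Prl2c3 had the largest gap. Prl2c3, a prolactin-family hormone gene known as a proliferin in mice, had an FPKM of 1.62 alone, 18.6 in coculture, 8.57 alone with QNZ and 14.4 in coculture with QNZ. It rose by 2.90 without QNZ, and its change with QNZ was 0.68, a gap of 2.22 and a read ratio of 6.86 (95% interval 4.55 to 10.5). Its copy Prl2c2 was also a lost rise, with 6.55, 30.2, 15.6 and 31.0 and a gap of 1.10, and reads may have been divided between the copies. For both genes the level in fibroblasts alone was the lowest of the 4.

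Several lost rises, among them genes of the amino acid and stress responses, were higher with QNZ in fibroblasts alone. Slc7a3, a transporter of arginine and lysine, had an FPKM of 1.17 alone, 5.92 in coculture, 13.2 alone with QNZ and 9.78 in coculture with QNZ, with changes of 1.67 without and -0.39 with QNZ. Its read ratio was 6.83 (95% interval 5.10 to 9.20), and the gene (ENSMUSG00000031297) lies on chromosome X from 101079210 to 101086020 on the minus strand. Trib3, a pseudokinase induced by ATF4, had 17.1 alone, 46.3 in coculture, 73.3 alone with QNZ and 68.8 in coculture with QNZ. Only the fibroblasts alone without QNZ were low in both genes, and the gap of Trib3 was 1.48. Aldh1l2, a mitochondrial enzyme of folate metabolism, had 4.19, 17.99, 13.0 and 24.2, and Gadd45a, a growth arrest gene, had 2.83, 17.2, 11.7 and 22.4. Ampd3, an AMP deaminase, had 5.39, 12.7, 16.2 and 14.1 and Acot2, a mitochondrial acyl-CoA thioesterase, had 3.61, 19.4, 19.2 and 27.3. The factor Atf4 itself had 146, 159, 228 and 194, with changes of 0.13 and -0.23.

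On the list of ATF4 and amino acid genes, 3 of 36 were lost rises (Trib3, Aldh1l2 and Slc7a3), against 0.529% of all measured genes, 4 were kept rises and 2 were kept falls. In all, 11 rose without QNZ and 5 with QNZ, beside 24.0% and 14.0% of all measured genes, and the list's median change was 0.28 and -0.09. The median difference between the libraries with and without QNZ was 0.74 in fibroblasts alone and 0.39 in coculture, compared with 0.19 and 0.05 over all genes. Gdf15, a stress-induced cytokine on this list, passed the size of 1 in neither pair but had an FPKM of 8.41, 13.4, 37.1 and 21.7 and a gap of 1.37. Among p53 targets, 1 of 21 was a lost rise, Pmaip1, which promotes cell death, with 9.93, 21.9, 24.1 and 22.5.

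Hypoxia-response genes rose less in coculture with QNZ. Of 34 measured members, 22 rose without QNZ and 12 with QNZ, and 32 had a gap above 0. The median change was 1.35 without and 0.62 with QNZ, and the median gap of 0.76 compares with 0.15 over all genes. Lost rises were Stc1, Stc2 and Mt1, and 11 genes were kept rises. Stc1, a secreted glycoprotein hormone, had an FPKM of 1.90 alone, 7.26 in coculture, 2.87 alone with QNZ and 3.01 in coculture with QNZ, so that coculture stood apart in the pair without QNZ only, with a gap of 1.46. Mt1, a metal-binding metallothionein that is also a zinc response gene, had 46.3 alone, 161 in coculture, 117 alone with QNZ and 109 in coculture with QNZ and a gap of 1.87. Its read ratio was 3.72 (95% interval 3.37 to 4.11), and it (ENSMUSG00000031765) lies on chromosome 8 from 94179082 to 94180327 on the plus strand.

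Some hypoxia targets were kept but weaker. Of the 34 measured members, 11 were kept rises, 11 were borderline and 9 passed in neither pair. The 5 genes that follow were named for a large gap or after their values were seen, so the size of their gaps reflects that choice. Vegfa, which drives vessel growth, had an FPKM of 26.4 alone, 191 in coculture, 52.98 alone with QNZ and 179 in coculture with QNZ, and rose by 2.81 and 1.74. Egln3, an oxygen-sensing prolyl hydroxylase named after its values were seen, had 11.9 alone, 94.5 in coculture, 14.4 alone with QNZ and 45.1 in coculture with QNZ, with changes of 2.89 and 1.58. Plod2, which modifies collagen lysines, had 9.53, 65.2, 15.2 and 36.4, and Ero1l, which forms disulfide bonds in the endoplasmic reticulum, had 12.7, 176, 31.4 and 153. Car9, a carbonic anhydrase also named after its values were seen, had 0.451, 6.62, 1.40 and 4.59. In these 5 genes both cocultured libraries were above both libraries of fibroblasts alone, and the change with QNZ was smaller by 1.07 to 1.45 on the log2 scale.

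Glycolysis as a whole did not follow the hypoxia list. Of 24 genes, 6 rose and 2 fell without QNZ and 2 rose and 2 fell with QNZ, and the median gap was 0.09. Over all measured genes 24.0% rose and 11.0% fell without QNZ, and 14.0% rose and 8.70% fell with QNZ. The lost rises were Pfkfb3, which makes an activator of glycolysis, with an FPKM of 4.93, 17.7, 6.23 and 8.64, and Gbe1, the glycogen branching enzyme, with 1.47, 10.6, 3.47 and 5.64. The glucose transporter Slc2a1 was borderline, with changes of 1.01 and 0.37, and so was hexokinase Hk2, with 1.44 and 0.48.

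A few lost rises are genes known from immune cells. Lyz2, lysozyme of macrophages and neutrophils, had an FPKM of 1.82 alone, 6.28 in coculture, 2.31 alone with QNZ and 1.62 in coculture with QNZ, with changes of 1.37 and -0.34. Of 8 macrophage markers 3 were measured (Cd68, Cd14 and Lyz2 itself), and their summed FPKM was 8.05 and 16.4 without QNZ and 10.8 and 11.2 with QNZ. Of the defining markers below an FPKM of 1, Adgre1 and Csf1r had, like Lyz2, most reads in coculture without QNZ, with Ptprc at 2, 5, 3 and 0 reads, Adgre1 at 1, 20, 2 and 9, Csf1r at 22, 53, 7 and 25 and Itgam at 2, 2, 0 and 0, in the order alone, coculture, alone with QNZ and coculture with QNZ. The part of such cells in the values of Lyz2 was not tested. H2-Ab1, a chain of the class II histocompatibility complex, had 3.72 alone, 13.0 in coculture, 4.89 alone with QNZ and 5.15 in coculture with QNZ and a gap of 1.51. The genes of its partner chain H2-Aa and of the invariant chain Cd74, named after their values were seen, stayed below an FPKM of 1 in all 4 libraries. Tnfrsf9, a receptor of the tumour necrosis factor family, had 0.381, 4.55, 0.489 and 1.51.

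The other lost rises had gaps between 2.11 and 1.004. Those that reached an FPKM of 5 included Angptl6, Dlx2, Klf10, Stc2, Fmod, Cited2, Col4a5, Rarres1, Serpinb2, Fam117b, Glce, Mdfic, Ptpdc1, Rcor2, Trim59, Bivm, Plppr3 and 2610528A11Rik. Cited2, a coactivator-binding protein induced by hypoxia, had an FPKM of 75.9 alone, 180.3 in coculture, 171 alone with QNZ and 168 in coculture with QNZ, with a high level in 3 libraries and a lower one in fibroblasts alone. Klf10, a zinc finger factor induced by TGF-β and named after its values were seen, had 2.59, 13.9, 6.14 and 12.8 and changes of 2.05 and 0.95. Angptl6, an angiopoietin-related secreted protein, had 0.656, 3.36, 6.89 and 6.34. Members below this level included Ascl2, Cdsn, Ache, Gm10961, Sytl5, Gm11084, Gm17374, H2-Q2, Insl3, Glt1d1, Gpr35, Prss27, Ripor2, Ccdc120, Klf5, Atp7b, Bend5, Lcat, Epm2a, Npas4, Gm10964, Sncb, Ciart, Nog and Reep1.

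In the lost rises the gap came from both cultures. QNZ was compared with no QNZ in fibroblasts alone and in coculture, and the gap equals the first of these differences minus the second. For lost rises the median difference was 0.53 in fibroblasts alone and -0.68 in coculture, and the larger of both was that in fibroblasts alone in 28 genes and that in coculture in 32. For lost falls it was -1.38 in fibroblasts alone and -0.11 in coculture, and the former was the larger in 46 of 50 genes. Fibroblasts alone without QNZ were the highest library in 49 of the 50 lost falls and the lowest in 56 of the 60 lost rises. The class rule sets part of this. It requires fibroblasts alone to be above coculture without QNZ in a lost fall, and below it in a lost rise. For gained rises the medians were -1.41 and -0.13, and for gained falls 0.49 and -0.72. Among the lost falls so selected, the larger QNZ difference was mostly a lower level with QNZ in fibroblasts alone. This describes the values that chose the genes and is not separate support.

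**Figure D3:**
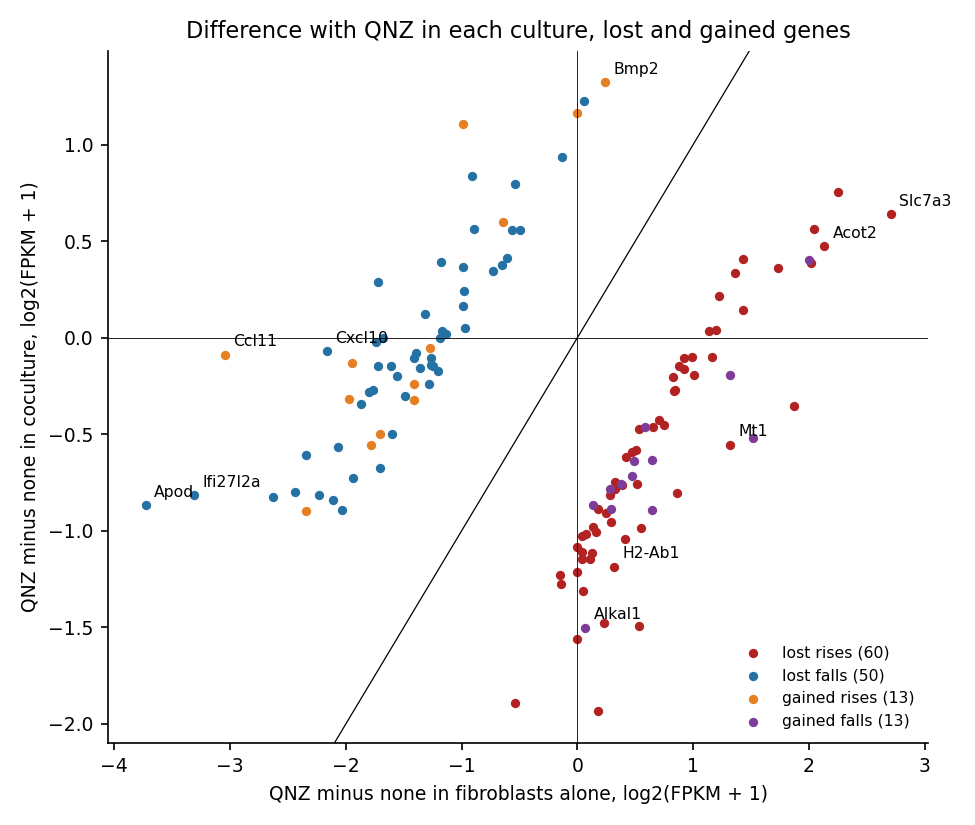
Difference of log2(FPKM + 1) between libraries with and without QNZ in fibroblasts alone (horizontal axis) and in coculture (vertical axis), 1 point per gene, coloured by class. Lost falls and gained rises spread to the left at little difference in coculture (medians -1.38 and -0.11 for the lost falls), while lost rises lie right of and below the line of equal differences (medians 0.53 and -0.68).

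Gained rises were mainly genes that were lower with QNZ in fibroblasts alone, with a smaller QNZ difference in coculture. Some, such as Lrrc15, were also lower with QNZ in coculture. Ccl11 (eotaxin), which attracts eosinophils, had an FPKM of 35.2 alone, 25.2 in coculture, 3.40 alone with QNZ and 23.7 in coculture with QNZ. Only the fibroblasts alone with QNZ stood apart, and the changes were -0.47 without and 2.49 with QNZ. The gap of -2.95 was larger in size than that of any named lost gene, and the read ratio was 0.103 (95% interval 0.0744 to 0.141). Ccl11 (ENSMUSG00000020676) lies on chromosome 11 from 82057823 to 82062955 on the plus strand, with no overlapping exon. Mfap4, a protein of elastic fibres, had 14.7 alone, 14.8 in coculture, 3.07 alone with QNZ and 13.4 in coculture with QNZ, and Serpina3g, a protease inhibitor induced by interferon and NF-κB, had 23.2 alone, 38.0 in coculture, 5.15 alone with QNZ and 30.2 in coculture with QNZ. Lrrc15, a membrane protein of activated fibroblasts, had 58.8, 44.0, 10.8 and 23.2 in the same order.

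The other gained rises included more interferon-induced genes. Oas1b had an FPKM of 19.0, 16.2, 7.25 and 15.6, Iigp1, a GTPase that attacks parasite vacuoles, had 13.2, 18.1, 3.35 and 12.6, and Ifi209 of the interferon-inducible Ifi200 family had 7.48, 12.8, 2.198 and 10.7. Ifi206 of the same family and Gm4951 were also gained rises. All had their lowest level in fibroblasts alone with QNZ. Itgb3, an integrin chain, had 8.73, 7.80, 5.25 and 12.3, with the highest level in coculture with QNZ. Bmp2, a bone-inducing ligand that the study adds to MSCs, had 0.767 alone, 1.93 in coculture, 1.09 alone with QNZ and 6.33 in coculture with QNZ, with changes of 0.73 and 1.81 and a read ratio of 0.432 (95% interval 0.269 to 0.7004). Gm21028 and Gm6020 completed the class with few reads.

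Of the 13 gained falls, 4 met the minimum level for naming (Alkal1, Syce2, Foxm1 and Prr11). Alkal1, a ligand of the ALK and LTK receptors, had an FPKM of 15.4 alone, 17.8 in coculture, 16.2 alone with QNZ and 5.64 in coculture with QNZ, so that coculture with QNZ was the only low library, with changes of 0.20 and -1.37. Foxm1, a transcription factor of the late cell cycle, had 4.70 alone, 3.61 in coculture, 6.399 alone with QNZ and 1.73 in coculture with QNZ and a gap of 1.13. Syce2, a synaptonemal complex protein, had 3.89, 3.86, 6.67 and 1.62, and Prr11, a cell cycle gene, had 4.02, 3.31, 6.03 and 1.77. The mitotic genes Ect2 with 2.11, 2.41, 3.32 and 1.07, Sgo1 with 1.75, 1.57, 3.29 and 0.658 and Cdca2 with 2.38, 1.66, 3.11 and 0.545 were named after their values were seen. Mtfr2, Ankk1, Batf, Cldn4, Cox6a2 and Prr32 were the other gained falls, of which Cox6a2 and Prr32 had the largest gaps of the class, 2.04 and 1.60, at low levels.

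Mitosis genes fell further in coculture with QNZ than without. Of 40 measured, 18 fell without QNZ and 25 with QNZ, 17 were kept falls and 2 were gained falls (Foxm1 and Ect2), against 0.115% of all measured genes. The median change was -0.67 without and -1.29 with QNZ, and 37 of 40 gaps were above 0. Ccnb2, a mitotic cyclin, had an FPKM of 23.5 alone, 8.04 in coculture, 21.2 alone with QNZ and 3.53 in coculture with QNZ, and the kinase Plk1 had 29.6, 4.40, 16.3 and 2.21 with nearly equal changes of -2.502 and -2.43. Of 44 DNA replication genes, 27 fell without QNZ and 34 with QNZ, and 27 were kept. This difference depended on the scaling. With median-of-ratios scaling 37 fell in each pair, and with the length trend removed 30 and 33 fell. As deposited, the median change of the replication genes was -1.27 and -1.46. Mcm5, of the replicative helicase, had changes of -2.56 and -2.65, and Rrm2, of ribonucleotide reductase, had -1.01 and -2.01.

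Cholesterol synthesis genes showed the opposite order, with weaker falls in the presence of QNZ. Of 25 measured, 13 fell without QNZ and 8 with QNZ, 7 were kept falls and 0 were lost by the size rule, and 22 had a gap below 0. The median change was -1.08 and -0.76. Mvd of the mevalonate pathway had an FPKM of 37.7 alone, 6.11 in coculture, 37.4 alone with QNZ and 14.4 in coculture with QNZ. Its fall was weaker with QNZ by 1.12 on the log2 scale. The median difference with QNZ on this list was 0.52 in fibroblasts alone and 0.87 in coculture. Of 12 fatty acid synthesis genes, 1 fell in each pair.

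Of 41 measured NF-κB target genes, 19 rose and 2 fell without QNZ and 15 rose and 0 fell with QNZ. Of the 19 rises, 12 were kept, beside 53.9% of the rises over all genes. Kept rises were 12 of the 41 (Ccl20, Cxcl2, Il6, Il1a, Nos2, Ptgs2, Saa3, Lcn2, C3, Hp, Mmp3 and Mmp13), against 12.9% of all measured genes. Lost rises were 0 of the 41, against 0.529% of all measured genes, so the list is too short to show a lack of them. Cxcl10 was a lost fall. The median change was 0.91 without and 0.76 with QNZ, and the median gap of 0.18 compares with 0.15 over all genes. The median difference with QNZ on this list was -0.27 in fibroblasts alone and -0.22 in coculture. The κB consensus motif was in 33.3% of these promoters (10 of 30).

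Single NF-κB targets differed in how much of the rise was present with QNZ. Lcn2, an iron-binding acute-phase protein, had an FPKM of 5.32 alone, 79.5 in coculture, 4.86 alone with QNZ and 89.5 in coculture with QNZ, and its changes of 3.67 and 3.95 differed little. Il6, the inflammatory cytokine, had 8.45 alone, 27.9 in coculture, 5.17 alone with QNZ and 14.5 in coculture with QNZ, and its read ratio was 1.18 (95% interval 0.951 to 1.46). Nos2, the inducible nitric oxide synthase, had 2.19 alone, 59.3 in coculture, 1.62 alone with QNZ and 20.2 in coculture with QNZ, so the rise of 4.24 was 3.01 with QNZ, a gap of 1.23 and a read ratio of 2.18 (95% interval 1.69 to 2.80). The gene (ENSMUSG00000020826) lies on chromosome 11 from 78920787 to 78960254 on the plus strand. Hp, the haemoglobin-binding haptoglobin, went the other way, with 7.92 alone, 20.3 in coculture, 2.17 alone with QNZ and 19.6 in coculture with QNZ and changes of 1.26 and 2.70. C3 of the complement system had 4.67, 50.4, 3.08 and 32.9, and the chemokine Ccl20, named after its values were seen, had 4.38, 15.8, 5.31 and 11.9. Cxcl2, Saa3 and Il6 were also named after their values were seen, and Cxcl2 and Saa3 had changes of 1.45 and 1.27, and of 1.86 and 1.93.

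The genes of the NF-κB pathway itself were described by role. Of 5 subunits, with median changes of 0.98 and 0.76, Rel was a kept rise and Relb was borderline, with changes of 1.03 and 0.76, while Rela had 0.53 and -0.02. Of 14 feedback inhibitors, 5 rose without QNZ and 2 with QNZ. Nfkbia, which encodes the inhibitor IκBα and is itself a target, had an FPKM of 33.4 alone, 100.02 in coculture, 34.8 alone with QNZ and 82.4 in coculture with QNZ, a kept rise with a read ratio of 1.27 (95% interval 1.13 to 1.42). Tnfaip3, the ubiquitin-editing inhibitor A20, had 2.30, 6.05, 3.71 and 4.84 and was borderline, with 1.10 and 0.31. Of 28 receptors and kinases, 11 rose and 2 fell without QNZ and 7 rose and 1 fell with QNZ, and 7 were kept rises (Tnfrsf1b, Il1r1, Il1rap, Tlr2, Tlr4, Irak3 and Tab2). In fibroblasts alone, Nfkbia was nearly equal without and with QNZ, at 33.4 and 34.8.

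**Figure D4:**
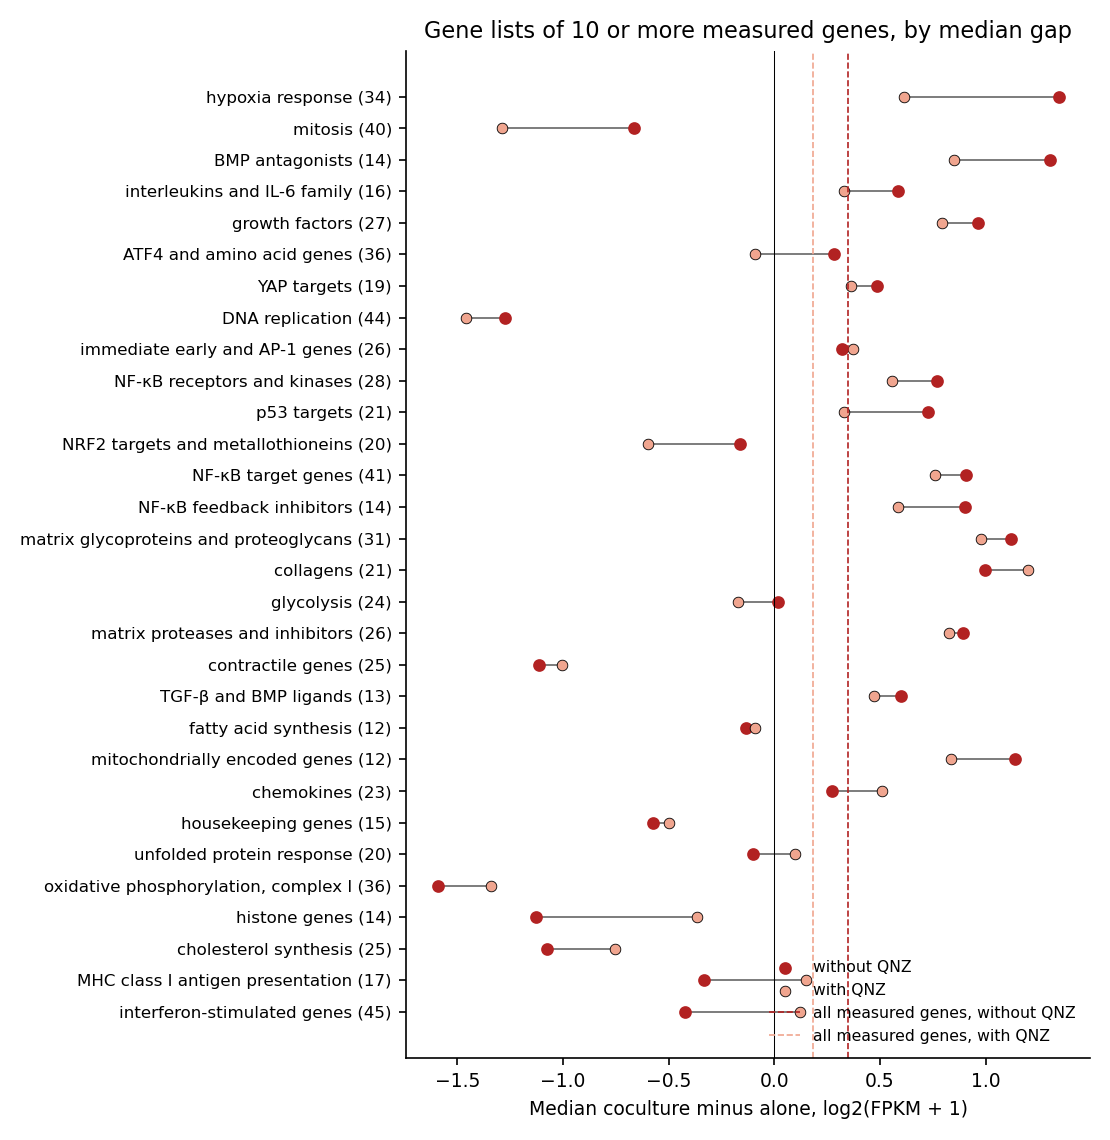
Median coculture change of each gene list without QNZ and with QNZ, as the difference of log2(FPKM + 1), with the medians over all measured genes (0.35 and 0.18) for comparison. The hypoxia response moved from 1.35 to 0.62, the interferon-stimulated genes from -0.42 to 0.12 and mitosis from -0.67 to -1.29, while NF-κB target genes were at 0.91 and 0.76.

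The lists of secreted factors differed from each other. Of 23 chemokines, 7 rose and 6 fell without QNZ and 5 rose and 1 fell with QNZ. They held 4 lost falls (Ccl8, Ccl12, Cxcl9 and Cxcl10), 1 gained rise (Ccl11), 4 kept rises (Ccl3, Ccl20, Cxcl2 and Cxcl12) and 1 kept fall (Ppbp). Cxcl12, which retains haematopoietic cells in the marrow, had an FPKM of 26.2, 100.4, 27.3 and 94.0. Of 27 growth factors, 12 rose without QNZ and 10 with QNZ, and 9 were kept. Ptn, a heparin-binding growth factor, had 11.2 alone, 152 in coculture, 2.77 alone with QNZ and 76.7 in coculture with QNZ, with changes of 3.65 and 4.36. Of 16 interleukins and IL-6 family cytokines, 6 rose without QNZ, and the 4 that rose with QNZ were kept (Il1a, Il6, Il33 and Clcf1). Of 13 TGF-β and BMP ligands, 2 were kept rises, Inha and Inhba, and Bmp2 was the gained rise.

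Of 14 measured antagonists of BMP signalling, 10 rose without and 5 with QNZ, and the median change was 1.31 and 0.85. For Grem1, which encodes a secreted antagonist of BMPs, the FPKM was 60.0 alone, 717 in coculture, 124 alone with QNZ and 947 in coculture with QNZ, with changes of 3.56 and 2.92 and a read ratio of 1.57 (95% interval 1.51 to 1.63). Nog (noggin), named after its values were seen, was the lost rise of the list, with 0.421 alone, 4.88 in coculture, 1.08 alone with QNZ and 1.97 in coculture with QNZ and a gap of 1.54. It rests on few reads, 11, 123, 29 and 44, and its read ratio was 6.36 (95% interval 2.78 to 15.2). The inhibitory Smad genes Smad6 and Smad7 were kept, with changes of 2.29 and 1.31, and of 1.99 and 1.03. Of 7 Wnt antagonists measured, Sfrp1 was a kept rise and the median gap was 0.04.

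The study followed DKK1, a secreted Wnt inhibitor, among 10 cytokine genes of its RNA data, which it chose on these libraries, so their direction without QNZ is not independent evidence. Dkk1 stayed below an FPKM of 1 and had 2 reads alone, 21 in coculture and 0 in both libraries with QNZ. In coculture without QNZ its level per 1000000 reads was 6.19-fold the limit of 3 reads in coculture with QNZ (0.228 reads per 1000000). This value leaves out the counting error of the 21 reads, so it is not a lower bound of the difference. With 0 reads in both libraries with QNZ, a coculture change with QNZ was not detectable at this depth. Fgf9 had 3, 13, 0 and 1 reads, Fgf11 had 3, 116, 5 and 42, and Il33 had 64, 278, 31 and 94. The level with QNZ relative to that without QNZ in coculture was 0.409 (95% interval 0.281 to 0.587) for Fgf11 and 0.382 (0.299 to 0.485) for Il33, an alarmin. The coculture ratio of Il33 was 4.50 without and 3.64 with QNZ. Ccl3, with 29 and 26 reads in the cocultured libraries, Egf, Ccl28, Pdgfb, Fgf12 and Fgf16 had intervals of this level that included 1.

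Among all kept rises, the ones with the largest changes in both pairs were Rsrp1, Lcn2, Ptn, C3, Ogt, Nos2, Grem1 and Leng8. Rsrp1, an arginine/serine-rich protein, had an FPKM of 6.98, 105, 7.38 and 108, Ogt, which adds sugar to nuclear proteins, had 5.45, 73.5, 8.93 and 80.9, and Leng8 had 3.71, 34.5, 3.76 and 36.5. Their changes in both pairs lay between 2.91 and 3.73. Of the kept falls, Acta1, a skeletal muscle actin, had 369, 29.8, 172 and 18.5, and Dctpp1, a nucleotide pyrophosphatase, had 67.3, 7.66, 60.6 and 6.30. Lce1h had 21.7, 0.762, 13.7 and 1.72 and Mcpt8, a mast cell protease gene of a family of close copies, had 18.3, 2.02, 25.1 and 2.06.

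Some kept genes differed in size between the pairs. Of the kept rises, 25 were weaker with QNZ by at least 1 and 4 were stronger, and of the kept falls 8 were weaker and 0 stronger. The genes in the next sentences with no other note were named after their values were seen. Dpt, a dermal matrix protein, had an FPKM of 24.3 alone, 62.7 in coculture, 6.84 alone with QNZ and 73.4 in coculture with QNZ, so its rise was 1.33 without and 3.25 with QNZ. Gas1, a growth arrest gene of the membrane, had 9.64, 20.9, 1.86 and 15.2, with changes of 1.04 and 2.501. In both the fibroblasts alone with QNZ were the lowest library. Dlk1, a Notch-like protein of progenitor cells, had 3.60, 51.5, 8.03 and 34.1 and Id2, an inhibitor of DNA binding downstream of BMP, had 5.00, 41.9, 10.4 and 29.2, with smaller rises with QNZ. Crabp1, which binds retinoic acid, had 3601 alone, 316 in coculture, 974 alone with QNZ and 379.9 in coculture with QNZ, a fall of 3.51 without and 1.36 with QNZ on the log2 scale.

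As deposited, matrix genes and other lists moved mainly in the same way in both pairs. Of 21 collagens, 10 rose without and 11 with QNZ, with 8 kept and Col4a5 lost, and Col6a1 had an FPKM of 94.8, 190.4, 36.0 and 135. Of 31 matrix glycoproteins and proteoglycans, 13 were kept rises, Fmod was a lost rise and Loxl3 a lost fall, and of 26 matrix proteases and inhibitors 9 were kept. Of 25 contractile genes, 14 fell without and 13 with QNZ, and 12 were kept. Of 36 complex I genes, 32 fell without and 28 with QNZ, and 28 were kept. These counts depended on gene length. With the length trend removed, 16 complex I genes fell without and 9 with QNZ, and 9 were kept. Of the collagens, 3 rose and 4 fell without QNZ and 5 rose and 0 fell with QNZ. Kept rises were then 4 matrix glycoproteins and proteoglycans and 5 matrix proteases and inhibitors, while 10 contractile genes were kept falls. Of 19 YAP targets, the pathway that the study examined in MSCs, 5 rose without QNZ and 1 with QNZ, beside 24.0% and 14.0% of all measured genes. The kept rise was Tead1, with changes of 1.68 and 1.14. With the length trend removed 0 rose in either pair, and the list's median changes were -0.15 and 0.01. As deposited, the median change of the YAP targets was 0.49 and 0.36, and 17 of 19 gaps were above 0.

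Of 14 histone genes, 8 fell and 1 rose without QNZ and 4 fell and 1 rose with QNZ. Their median change was -1.13 without and -0.37 with QNZ, the median gap was -0.23, and Hist1h3b and Hist1h3c were the lost falls of the list. Both had few reads, and the counting intervals of their read ratios, 0.0649 to 2.06 and 0.00174 to 15.0, included 1. The histone counts depended on gene length. With the length trend removed, 1 fell and 1 rose without QNZ, and 1 fell and 2 rose with QNZ. The median changes were then -0.16 and 0.11, and 0 histone genes were lost falls. Of 20 genes of the unfolded protein response, 4 rose without and 1 with QNZ, and of 20 NRF2 targets and metallothioneins 3 rose and 5 fell without QNZ and 1 rose and 5 fell with it, with median changes of -0.16 and -0.60. Hmox1, haem oxygenase, had an FPKM of 272, 249, 864 and 398. Of 26 immediate early and AP-1 genes, 6 rose without and 3 with QNZ, near the 24.0% and 14.0% of all measured genes. Of 7 osteoblast lineage genes, 4 rose without and 2 with QNZ, the kept rises being Sp7 and Spp1. Of 15 housekeeping genes, Ppia and Rplp0 were kept falls and the median gap was -0.06. Of 12 mitochondrially encoded genes, 7 rose without and 6 with QNZ, with a median gap of 0.02.

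The gap was related to gene length across genes. When genes were divided by length into 10 groups of nearly equal number, the median gap was -0.04 among the shortest genes (at most 1773 bases) and 0.28 among the longest (at least 9914 bases), and the Spearman correlation over 11335 genes was 0.28. The coculture change itself had correlations of 0.51 without and 0.49 with QNZ. The 2 shortest groups held 17 and 13 of the 50 lost falls, and 17 and 9 of the 60 lost rises. With the length trend removed, 57 genes were lost rises and 61 lost falls, of which 34 and 33 were also lost as deposited. The part of gene length in the classes of single genes was not tested further.

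**Figure D5:**
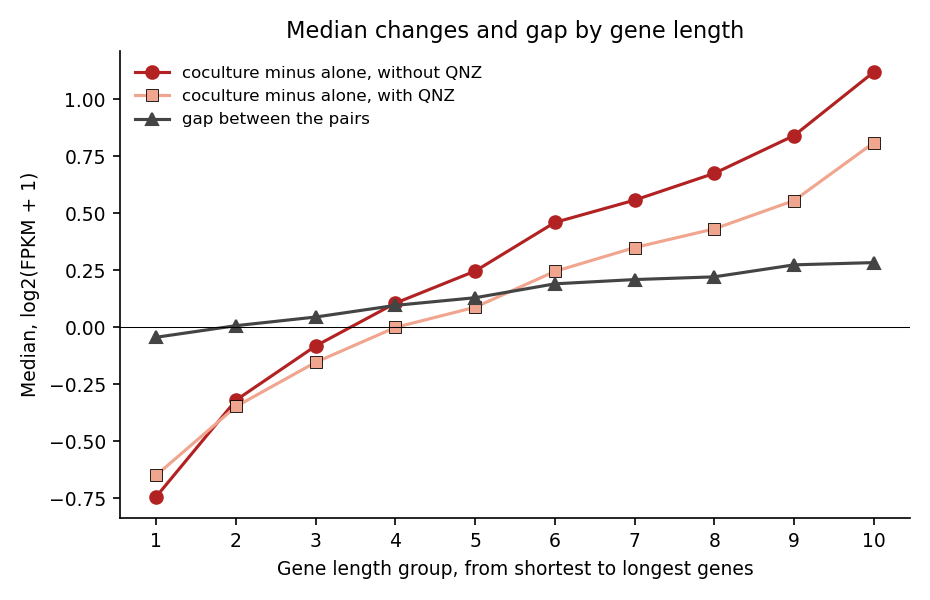
Median coculture change without QNZ, with QNZ and median gap in 10 groups of genes by length, as differences of log2(FPKM + 1). The change without QNZ goes from -0.74 in the shortest to 1.12 in the longest group, that with QNZ from -0.65 to 0.81, and the gap from -0.04 to 0.28.

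The balance of rises and falls moved with the scaling. With median-of-ratios scaling 1477 genes rose and 2345 fell without QNZ and 1013 rose and 1498 fell with QNZ, and as TPM 6022 and 661, and 4102 and 600. The genes with a gap of at least 1 and at most -1, 125 and 90 as deposited, were 71 and 193 with median-of-ratios scaling and 709 and 177 as TPM. The median gap over all genes was -0.04 and 0.31 with these scalings. The next 4 lists kept their order under both. The median gap of the interferon-stimulated genes was -1.03 and -0.71, that of the hypoxia response 0.53 and 0.95, that of mitosis 0.23 and 0.76, and that of NF-κB target genes -0.0022 and 0.29. The median gap changed sign in 17 of 41 lists under median-of-ratios scaling, among them NF-κB targets, feedback inhibitors, receptors and kinases, p53 targets, collagens, contractile genes and glycolysis, and in 2 as TPM (chemokines and housekeeping genes).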

How the data were processed

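RNA-seq libraries from mouse embryonic fibroblasts covered 4 conditions, 1 library each. The authors prepared stranded libraries, aligned them to mm10 by STAR 2.5.4b and named Cuffnorm of Cufflinks 2.2.1. The authors deposited, per gene and library, a read count with no normalization and an FPKM. Each FPKM equals the count divided by gene length and the library total. Whether the counting used strand is not stated there. All columns were matched to a condition by name, and 0 were left unmatched. Values of 23 names with more than 1 gene ID were summed, leaving 21839 genes from 21862 gene IDs.

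Changes were differences of log2(FPKM + 1), a pseudocount of 1, in genes that reached an FPKM of 1 in at least 1 library. Classes used a size of 1 on this scale. With 1 library per condition no p-value or standard error is given. The ratio of the read ratios had an exact conditional 95% interval (a log-normal one where a library had over 3000 reads), which covers counting error only, and a count of 0 was given a limit of 3 reads. Depth was 13153696 to 15778488 reads per library, and 3 reads were 0.190 to 0.228 reads per 1000000.

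Named genes reached an FPKM of 5 in 1 or more libraries and held at least 100 reads in all, without predicted genes. They were the 12 lost rises, 8 lost falls, 8 gained rises and up to 6 gained falls (4 qualified) with the largest gaps, the 8 kept rises and 6 kept falls with the largest smaller change, up to 4 members of each of 43 gene lists (8 for the lists of NF-κB), the cytokines that the study names and Grem1. Others are given as members of a class or are noted as chosen after their values were seen. Some members of the classes and lists are counted but not reported here by name. The lists, classes and rules were chosen with earlier results of these data known.

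Alternatives were pseudocounts of 0.1 and 0.01, an FPKM of at least 5, no filter, median-of-ratios scaling, TPM, the top gene ID per name, a size of 2, and removal of the length trend (lowess, span 0.3). Removal of the length and GC trend was added after the data were seen, with GC values from GENCODE M21 for 21822 genes. Promoters came from the RefSeq table (GRCm38.p6), the first start listed per gene. The size rule was tested on simulated data. The scripts ran in Python 3.11.15 with scipy 1.17.1, pandas 2.3.3, statsmodels 0.14.6, matplotlib 3.10.9 and numpy 2.4.6.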

Additional observations from a re-analysis of the deposited data

Results flagged for a closer look

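In 3 named genes the coculture change went in opposite directions without and with QNZ with a size of 0.5 or more in each pair, as log2(FPKM + 1). With 1 library in each condition the difference between the pairs was not tested. Apod, a lipocalin, had changes of -2.04 and 0.82, a gap of -2.86. Ifi27l2a, an interferon-induced gene with a close copy beside it, had changes of -1.76 and 0.73, a gap of -2.49. Gdf15, a stress-induced cytokine, had changes of 0.62 and -0.75, a gap of 1.37.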

How the results depend on the processing

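No paired analysis was possible because each condition had 1 library and no replicate number, and for the same reason no library could be left out. The gaps of all genes named by the rule and of the list medians were recomputed under 9 settings. No gap of a lost or gained gene that the rule names changed sign. These genes were chosen for a gap of at least 1, so a change of sign is a lax measure, and a filter cannot alter a gap. Of 253 named gaps and list medians, 138 moved with median-of-ratios scaling, 102 with the length trend removed and 95 as TPM. Moved means by more than the counting error of a gene, or by at least 0.1 for a list median. The counts of genes in each class depended on the settings. Leaving the filter out and taking the top gene ID per name moved none of these counts by over 1.5 times. Lost rises, 60 as deposited, numbered 221 with a pseudocount of 0.1, 263 with 0.01, 33 at an FPKM of at least 5, 32 with median-of-ratios scaling, 339 as TPM and 3 at a size of 2. Lost falls, 50 as deposited, numbered 103 with median-of-ratios scaling and 3 at a size of 2. Kept rises, 1465 as deposited, numbered 2379 and 2463 with pseudocounts of 0.1 and 0.01, 861 with median-of-ratios scaling, 3782 as TPM, 120 at a size of 2, and 658 and 555 after removal of the length trend and of the length and GC trends. Kept falls, 842 as deposited, numbered 1399 with median-of-ratios scaling, 400 as TPM and 40 at a size of 2. Gained rises, 13 as deposited, numbered 48 and 52 with the smaller pseudocounts, 20 with median-of-ratios scaling, 73 as TPM, 1 at a size of 2, and 23 and 25 with the trends removed. Gained falls, 13 as deposited, numbered 54 and 65 with the smaller pseudocounts, 4 at an FPKM of at least 5, 51 as TPM, 0 at a size of 2, and 5 and 4 with the trends removed. Gaps of at least 1 in size, 215 as deposited, numbered 756 and 949 with the smaller pseudocounts, 141 at an FPKM of at least 5, 886 as TPM and 12 at a size of 2. Of the 60 lost rises, 42 were also lost with a pseudocount of 0.1, 31 as TPM and 31 with median-of-ratios scaling, and of the 50 lost falls 44, 33 and 47 were. The cause of these differences was not tested.

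The median gap over all genes was 0.15 as deposited and -0.02 without the length trend or without the length and GC trends, and in the latter case 1097 genes rose and 1350 fell without QNZ and 712 rose and 732 fell with QNZ. With the length trend alone removed these were 1228 and 1472, and 843 and 749. Gaps of at least 1 and at most -1 were then 99 and 135, and 96 and 126 with both trends removed. With both trends removed the median gap was -1.0002 for the interferon-stimulated genes, 0.52 for the hypoxia response, 0.06 for NF-κB target genes, 0.19 for mitosis and -0.58 for cholesterol synthesis. The median gap of 12 of 41 lists changed sign with the length trend removed and of 13 with both trends removed. Among the 41 NF-κB target genes 0 were lost rises with either scaling or trend removed. Over all genes, lost rises were then 32 of 11241 with median-of-ratios scaling and 339 of 13076 as TPM. With the length trend or both trends removed they were 57 and 53 of 11335. The list is too short to show a lack of them. Of the interferon-stimulated genes 13 were lost falls with median-of-ratios scaling, 8 as TPM and 12 with both trends removed. As TPM their median change without QNZ was 0.09. The gaps of Foxm1 and Prr11 fell under 1, to 0.87 and 0.88 with median-of-ratios scaling, and that of Pfkfb3 was 0.89 with the length trend removed. Genes with few reads and genes below an FPKM of 1, such as Dkk1, are limited by depth.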
